A study of Mus musculus with 6 samples.

Results

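MurSatRep1 is a repeat family of the mouse genome, and its 262 single copies listed in these data were described for RNA level in embryonic stem cells without Dot1L. The members are the entries of the single-copy table whose family name is exactly MurSatRep1, which makes 262 of 26255 copies, or 0.998% of that table. The 4 subfamilies of the Satellite class in the subfamily table were added for comparison. RNA was measured in 3 samples labelled Dot1L-/- (knock-out, KO), made by CRISPR/Cas9, and in 3 samples labelled wild type (WT). Both groups were mouse E14 embryonic stem cells grown on gelatin with serum and LIF, the cytokine that keeps such cells undifferentiated, and both carry the label day 14, whose starting point is not stated. Neither the number of knock-out clones nor whether replicates were separate cultures is given, so p-values measure only the spread between these samples.

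Satellites are tandem repeats that make up much of the heterochromatin around and near centromeres, and mouse major satellite, called GSAT_MM in repeat annotation, is the best known of them. Their transcription is usually low and is held down by histone H3 lysine 9 methylation, by HP1 proteins that bind that mark, and by DNA methylation. Dot1l encodes the methyltransferase of histone H3 lysine 79, a mark of transcribed chromatin. The name MurSatRep1 refers to a murine satellite repeat, but the deposited names give it the class Unknown, so it is called by its family name here. The names hold a serial number for each copy and neither position nor sequence; genome positions, host genes and sequences of the copies were not analysed here.

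The tables analysed hold the authors' comparison of the genotypes and no values per sample, so the level of a copy is given as a mean over all libraries and as the group means that this mean and the fold change imply. The depth of each library is unknown for the same reason. The sign of the fold change carries no label either. Positive values are taken here as Dot1L KO above WT, on the ground that MERVL, an endogenous retrovirus, is described in published work as held down by Dot1l. Under this reading the MERVL-int subfamily stood at 1.96 ± 0.38 (log2 fold change ± SE) in the authors' deposited table (adjusted p = 0.000107). With the opposite sign all directions below turn round. Dot1l itself (chromosome 10, 80755206 to 80795461 in mm10) had 5439 normalized counts in Dot1L KO and 6083 in WT, at -0.16 ± 0.25 in the authors' deposited table (adjusted p = 0.845), so its RNA level does not check the labels.

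No MurSatRep1 copy passed the test on its own. Of the 261 copies with a p-value, 0 lay above WT and 0 below WT in Dot1L KO with an adjusted p under 0.05 (DESeq2 Wald test of the authors' deposited table, Benjamini-Hochberg adjustment over all copies), where 1.11% of all copies tested were called. Without adjustment, 32 of the 261 copies had a p under 0.05, of which 29 were higher and 3 lower in Dot1L KO. That is 12.3% of the MurSatRep1 copies, against 4.70% of all copies tested. The 29 higher ones make 11.1% of the family, against 2.88% of all copies, and the 3 lower ones make 1.15%, against 1.82% of all copies. These shares describe the family and are not a test of it, since copies of a repeat share sequence and can share reads. MurSatRep1_dup200 and MurSatRep1_dup235 have identical deposited values, with a mean of 10.7 and a log2 fold change of 0.06 ± 1.01 (SE). Both are counted here, and whether they hold the same reads cannot be seen.

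Most fold changes of the family lay above 0. The median log2 fold change over the 261 copies was 0.55, with the 25th percentile at -0.09 and the 75th at 1.31, against a median of 0.02 over all copies tested. The change was positive in 187 copies and negative in 74, so 71.6% were positive, against 50.9% of all copies. A log2 fold change over 1 was seen in 87 copies and one under -1 in 15. With the sign read as above, 4 of the 97 subfamilies with at least 50 tested copies had a higher median than MurSatRep1: MERVL-int at 4.06, MT2_Mm at 2.09, MMSAT4 at 0.62 and L1Md_A at 0.61.

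**Figure D1:**
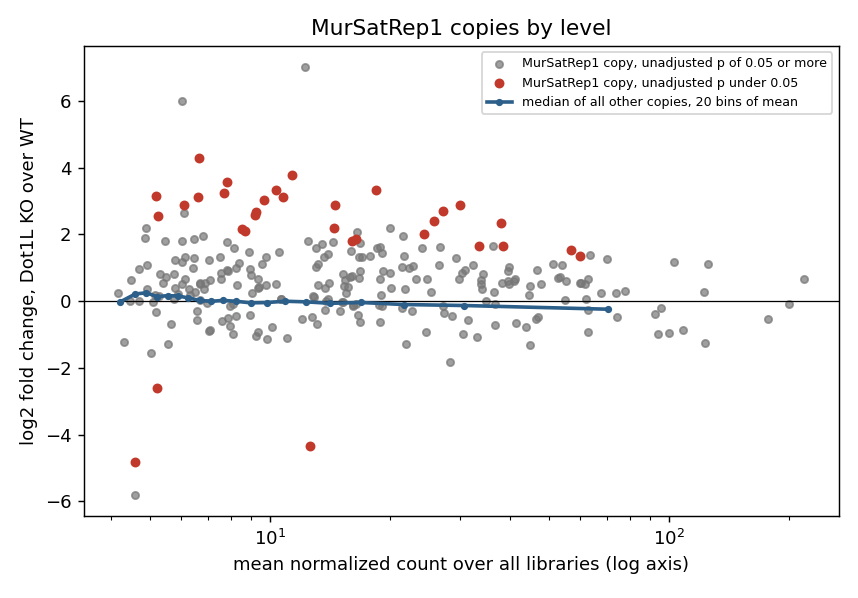
Log2 fold change (Dot1L KO over WT) of each of 261 MurSatRep1 copies against its mean normalized count (log axis), with the median of all other copies in 20 bins of mean as a line. The 32 copies at an unadjusted p under 0.05 (red) are 29 above 0 and 3 below, and they lie at means of 4.58 to 59.9.

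The copies were weakly expressed, and in bulk RNA a rise in few cells and a small rise in all cells cannot be told apart. Their mean normalized counts ran from 4.18 to 218.8 with a median of 15.1, against a median of 7.92 over all copies in the table. The lowest mean of any copy in the table is 3.61, and the serial numbers of the listed members run from 58 to 2585; copies that are not listed were not analysed here. The 262 means summed to 6563, or 1.36% of the summed means of all copies. The 10 most abundant copies held 21.0% of the family's sum, and 43 copies held 50% of it. The implied group sums were 7431 normalized counts in Dot1L KO and 5695 in WT, a ratio of 1.30 (log2 ratio 0.38). Over all copies listed the implied sums were 443097 in Dot1L KO and 522341 in WT, a log2 ratio of -0.24.

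In each of 4 classes of mean count the median of the family was positive, and of the 4 it was smallest in the most abundant class. In 20 finer bins of mean count, with 2 to 43 MurSatRep1 copies each, it ran from -0.49 to 1.10. Below a mean of 10 the 98 MurSatRep1 copies tested had a median log2 fold change of 0.59, against 0.08 for other copies of that level. From 10 to under 20 the median was 0.65 over 67 copies, against -0.04 for other copies. From 20 to under 50 it was 0.61 over 63 copies, against -0.11. At 50 and over it was 0.30 over 33 copies, against -0.29. In that highest class 2 copies had an unadjusted p under 0.05, both of them higher, which is 6.06% of the class; among other copies of that level 4.82% were higher and 9.32% lower at the same threshold.

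**Figure D2:**
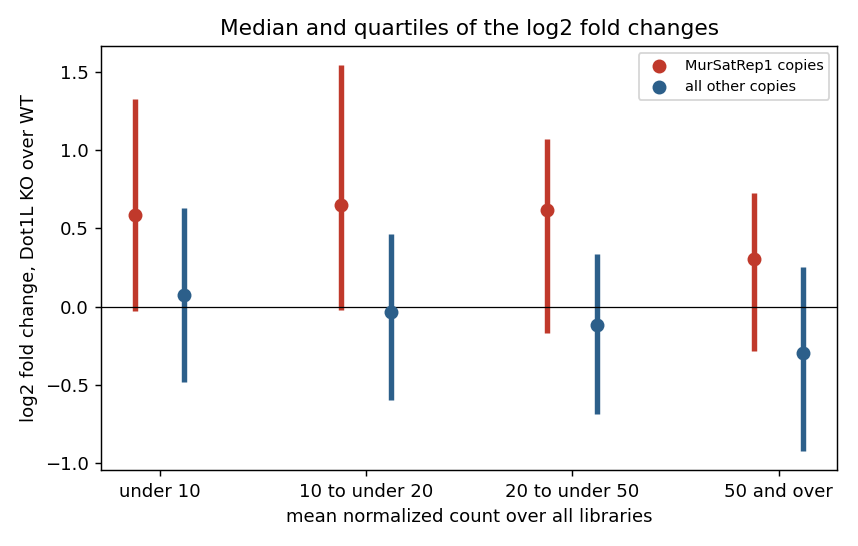
Median log2 fold change (points) with the 25th and 75th percentiles (bars) of tested MurSatRep1 copies and of all other copies, in 4 classes of mean normalized count. The MurSatRep1 medians run from 0.30 to 0.65 and the medians of other copies from -0.29 to 0.08.

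The 6 most abundant copies did not move in one direction. MurSatRep1_dup403, the most abundant, had an implied level of 269.0 normalized counts in Dot1L KO and 168.7 in WT, with a log2 fold change of 0.67 ± 0.65 (SE) and an unadjusted p of 0.300 in the authors' deposited table. MurSatRep1_dup2385 was almost level between the genotypes, at 195.2 in Dot1L KO and 205.7 in WT, and the authors' deposited table gives it -0.08 ± 0.65. The other copies of this group were on both sides of 0. MurSatRep1_dup2174 had 171.7 normalized counts in Dot1L KO and 79.5 in WT, with 1.11 ± 0.67 in the authors' deposited table. MurSatRep1_dup2386 had 73.1 in Dot1L KO and 174.0 in WT, with -1.25 ± 0.88 in the authors' deposited table. MurSatRep1_dup2381 stood at -0.52 ± 0.81 and MurSatRep1_dup1492 at 0.27 ± 0.64 in the authors' deposited table. All 6 had an adjusted p of 1.00.

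The copies with the smallest p-values were less abundant and mostly higher in Dot1L KO. The smallest p belonged to a lower one, MurSatRep1_dup171, with 1.20 normalized counts in Dot1L KO and 24.1 in WT. Its log2 fold change is -4.33 ± 1.27 in the authors' deposited table, with p = 0.000642 and adjusted p = 0.0552. It missed the threshold narrowly, and with copies under a mean of 10 left out before the adjustment it was called as lower. The next 5 were all higher. MurSatRep1_dup423 had 12.6 normalized counts in Dot1L KO and 0.646 in WT, at 4.29 ± 1.41 in the authors' deposited table (adjusted p = 0.152). MurSatRep1_dup425, with a neighbouring serial number, had 21.2 in Dot1L KO and 1.54 in WT, at 3.79 ± 1.25 in the authors' deposited table (adjusted p = 0.156).

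The remaining copies of that group carry serial numbers from 2051 to 2099. MurSatRep1_dup2051 had 19.4 normalized counts in Dot1L KO and 2.21 in WT, with 3.13 ± 1.04 in the authors' deposited table. MurSatRep1_dup2099 had 47.2 in Dot1L KO and 7.27 in WT, with 2.70 ± 0.91 in the authors' deposited table. MurSatRep1_dup2090 had 53.0 in Dot1L KO and 7.13 in WT, with 2.89 ± 0.98 in the authors' deposited table. By the fitted value these last copies were 6.49-fold to 8.75-fold higher, but with adjusted p from 0.158 to 0.178 none passed.

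**Figure D3:**
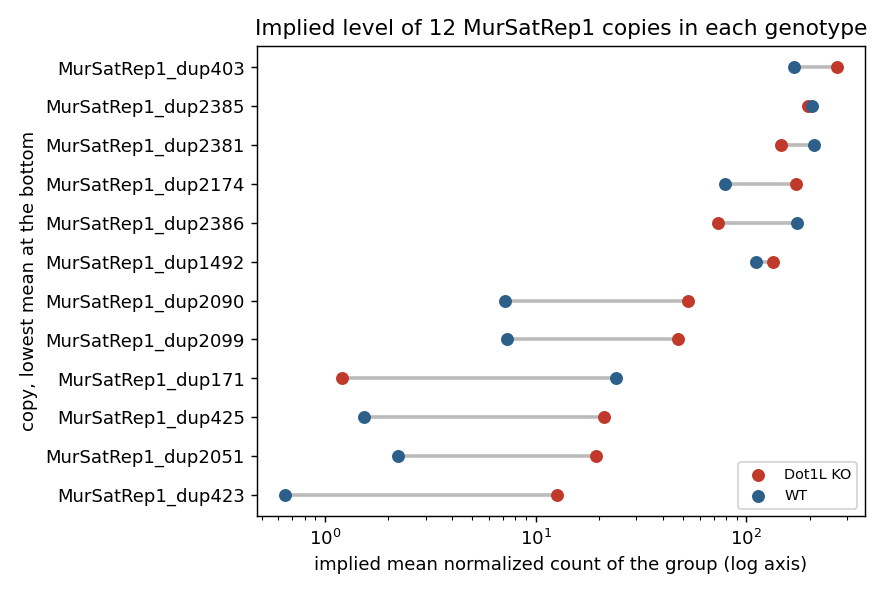
Implied mean normalized count (log axis) in Dot1L KO and in WT of the 6 most abundant MurSatRep1 copies and the 6 with the smallest p. The abundant copies at the top have both genotypes between 73.1 and 269.0, whereas 5 of the 6 at the bottom lie higher in Dot1L KO and MurSatRep1_dup171 lies lower.

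A few copies had an implied level of no reads in 1 genotype. For 3 copies the implied WT level was that of no reads, and for 1 copy the implied Dot1L KO level was. MurSatRep1_dup2071 had 33.0 normalized counts in Dot1L KO, which is 33.0-fold higher when WT is set to a floor of 3 counts over the group. The authors' deposited table gives it 21.69 ± 3.91 (log2 fold change ± SE) but no p-value, so it counts as untested. The reason is not stated, and whether its reads come from 1 library cannot be seen. It is the 1 copy left out of the counts above. MurSatRep1_dup199 had 24.3 in Dot1L KO and was 24.3-fold higher on the same floor. The authors' deposited table gives it 7.01 ± 3.91, with p = 0.0731. MurSatRep1_dup217 had an implied level of no reads in Dot1L KO and 9.04 normalized counts in WT. On the same floor it was 9.04-fold lower in Dot1L KO, and the authors' deposited table gives it -5.81 ± 3.92, with p = 0.138. These folds rest on the floor and leave out the error of the group with reads, so they are not limits on the change. None of these copies with a p-value was called.

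The medians varied between ranges of 100 serial numbers. The ranges were chosen after the values were seen, so they are given as a description without a test, and the sources used here do not say whether the numbers follow genome order. The pair of ranges with the highest medians, among those with at least 10 tested copies, ran from 2000 to 2199. Of the 49 tested copies numbered 2000 to 2199, 48 had a positive fold change and 1 a negative one, with a median of 1.49 and a range of -0.01 to 3.57. Among them were 17 of the 32 copies with an unadjusted p under 0.05, all higher. These make 34.7% of the copies tested in this range, where 2.88% of all copies tested were higher at that threshold. Over the 50 copies listed in this range, MurSatRep1_dup2071 included, the implied levels summed 2.74-fold higher in Dot1L KO than in WT. MurSatRep1_dup2071, which has no p-value, gave 33.0 of the 1626 normalized counts summed in Dot1L KO. The 50 copies held 16.9% of the family's summed means.

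Other ranges had smaller medians. The 18 copies numbered 400 to 499 had a median of 0.92, and 5 of them were higher at an unadjusted p under 0.05, where 11.1% of the family and 2.88% of all copies were. The 20 copies numbered 1500 to 1599 had a median of 0.91, with 4 such copies. The lowest median among ranges with at least 10 tested copies was -0.45, over the 12 copies numbered 1300 to 1399, of which 5 were positive and 7 negative and 2 were higher at an unadjusted p under 0.05. The 29 copies numbered 200 to 299 had a median of -0.08 and the 20 numbered 2300 to 2399 a median of 0.24, with 0 copies at an unadjusted p under 0.05 in both ranges. The range 2300 to 2399 is the most abundant, with 17.3% of the family's summed means, and includes MurSatRep1_dup2381, MurSatRep1_dup2385 and MurSatRep1_dup2386. The 26 copies numbered 100 to 199 held the 3 copies that were lower at an unadjusted p under 0.05, beside 17 copies with a positive fold change. Without the copies numbered 2000 to 2199, the other 212 had a median of 0.41, with 139 positive and 73 negative.

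**Figure D4:**
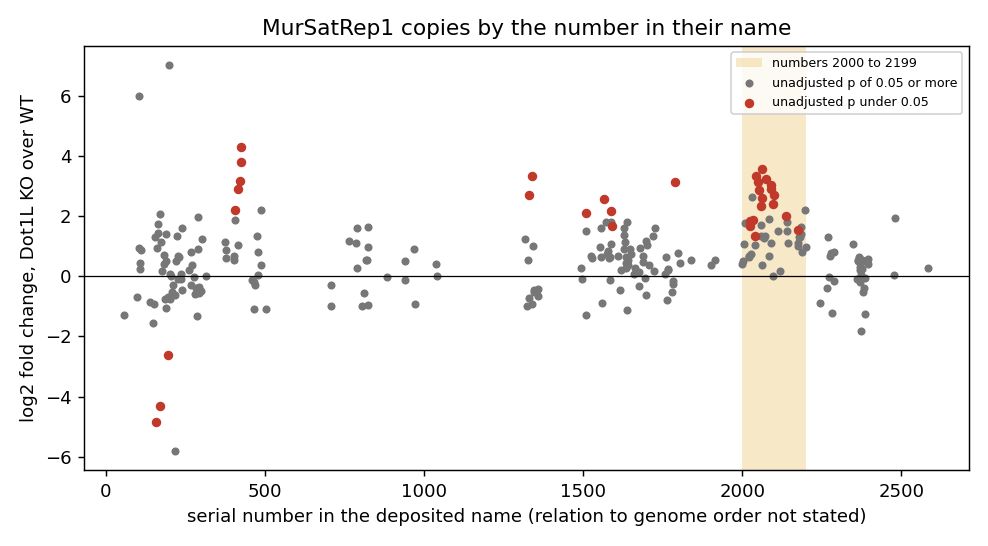
Log2 fold change (Dot1L KO over WT) of 261 MurSatRep1 copies against the serial number in their deposited name, with an unadjusted p under 0.05 in red. In the shaded range from 2000 to 2199, 48 of 49 copies lie above 0; the 3 red points below 0 lie between 100 and 199.

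The subfamily table, which has 1 entry for the whole family, did not show a difference for MurSatRep1. Its level was 8192 normalized counts in Dot1L KO and 7205 in WT, at 0.19 ± 0.32 in the authors' deposited table (adjusted p = 0.996). The 95% interval of that log2 fold change runs from -0.43 to 0.81. The median over single copies, 0.55, lies within that interval, but it weighs each copy alike whatever its level. The log2 ratio of the summed implied levels of the copies was 0.38. The interval does not test whether these values are alike. Of 936 subfamilies tested, 0.748% were called at an adjusted p under 0.05. The summed means of the listed copies equal 85.3% of the subfamily's mean of 7698, if both tables were scaled alike, which is not stated.

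None of the 4 Satellite subfamilies passed the test either (DESeq2, adjusted p under 0.05), so 0 were called in each direction. At an unadjusted p under 0.05, 2 of the 4 were lower, against 3.31% of all subfamilies. Major satellite, GSAT_MM, had 178.9 normalized counts in Dot1L KO and 258.8 in WT, at -0.53 ± 0.22 in the authors' deposited table (p = 0.0144, adjusted p = 0.530). ZP3AR had 823.7 in Dot1L KO and 1162 in WT, at -0.50 ± 0.23 in the authors' deposited table (p = 0.0301, adjusted p = 0.695). MMSAT4 had 9616 in Dot1L KO and 6686 in WT, at 0.52 ± 0.36 in the authors' deposited table (adjusted p = 0.996). IMPB_01 stood at -0.30 ± 0.23 in the authors' deposited table. No difference between MurSatRep1 and these subfamilies was tested.

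**Figure D5:**
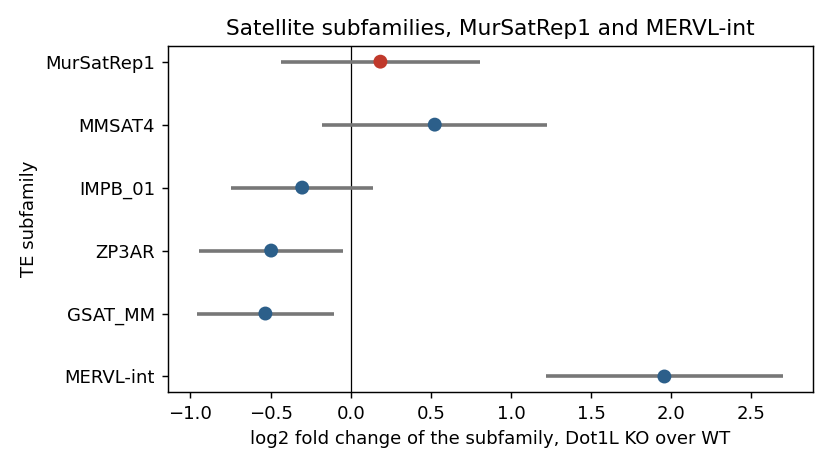
Log2 fold change (Dot1L KO over WT) of the MurSatRep1 subfamily, the 4 Satellite subfamilies and MERVL-int, with 95% intervals as bars. MERVL-int at 1.96 is the one subfamily of these that passed the test; the interval of MurSatRep1 runs from -0.43 to 0.81.

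By single copies, the median was positive for MMSAT4, as for MurSatRep1, and negative for the other Satellite subfamilies; the differences were not tested. The 168 tested MMSAT4 copies had a median log2 fold change of 0.62, 129 positive and 39 negative, with 19 higher (11.3%) and 1 lower (0.595%) at an unadjusted p under 0.05, against 2.88% and 1.82% of all copies. The 43 ZP3AR copies had a median of -0.24, with 13 positive, and all 6 GSAT_MM copies listed were negative, with a median of -0.81. The 45 IMPB_01 copies had a median of -0.09, but 2 of them were the only copies of the Satellite class or of MurSatRep1 called in the table, both higher, where 1.11% of all copies were called. IMPB_01_dup15900 had 37.6 normalized counts in Dot1L KO and 1.66 in WT, at 4.50 ± 1.03 in the authors' deposited table (adjusted p = 0.00330). IMPB_01_dup15896 had 99.99 in Dot1L KO and 7.64 in WT, at 3.71 ± 1.01 in the authors' deposited table (adjusted p = 0.0258). The serial numbers of these 2 copies lie close together, and whether their reads come from 1 transcript cannot be seen.

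A list of 30 genes was drawn up for satellite chromatin, Dot1l included, and the role of each gene there was not examined here. All were tested, and 1 rose and 0 fell at an adjusted p under 0.05, where 6.58% of all genes were called. Their median log2 fold change was -0.09, against -0.02 over all genes. The one that rose was Dnmt3a (chromosome 12, 3806007 to 3914443 in mm10), a de novo DNA methyltransferase, at 7833 normalized counts in Dot1L KO and 4347 in WT, with 0.85 ± 0.24 in the authors' deposited table (adjusted p = 0.00822). With Bonferroni adjustment Dnmt3a was not called. Cenpa (chromosome 5, 30666777 to 30674830), the histone H3 variant of centromeres, had 4840 in Dot1L KO and 7459 in WT, at -0.62 ± 0.31 in the authors' deposited table (adjusted p = 0.288). Suv39h2 (chromosome 2, 3455815 to 3475031), which methylates histone H3 lysine 9 at pericentromeres, had -0.44 ± 0.27 in the authors' deposited table (adjusted p = 0.441). Daxx (chromosome 17, 33909414 to 33915590), a histone H3.3 chaperone, had -0.57 ± 0.35 in the authors' deposited table (adjusted p = 0.456).

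Stem cell markers were abundant, and markers of other states differed between the genotypes. Of 10 stem cell markers 0 passed the test (DESeq2), with 1 at an unadjusted p under 0.05, a threshold met by 16.2% of all genes, and Pou5f1, Sox2 and Nanog had means of 31376, 13734 and 16107 normalized counts over all libraries in the authors' deposited table. Of 8 primitive endoderm markers 6 were higher and 0 lower, where 5.34% of all genes were higher, with summed levels of 6762 in Dot1L KO and 3408 in WT. Most of these counts came from Lama1, which was not called, at 3597 in Dot1L KO and 2871 in WT, and from Col4a1, at 2351 and 349.5. Of the 5 fibroblast markers listed 4 were higher and 0 lower, with summed levels of 2196 in Dot1L KO and 994.9 in WT; Dcn, Lum and Postn are not among the genes listed. Of 8 markers of 2-cell-like cells, the rare state in which stem cells transcribe genes of the 2-cell embryo, 6 were higher and 0 lower, with summed levels of 1664 in Dot1L KO and 29.6 in WT. The part of these shifts in the MurSatRep1 values was not tested.

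The precision of single copies was low. The largest unadjusted p called in the copy table was 0.000549, so that at the family's median SE of 1.01 a copy needed a log2 fold change of at least 3.51 to be called, and at its smallest SE of 0.64 at least 2.21. The 95% interval was entirely within -1 to 1 for 0 of the 261 copies, and for 0 of all 26204 copies tested. Even at the family's smallest SE the interval is too wide for that, whatever the fold change. An absence of change could therefore not be shown for any of the 261 copies.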

How the data were processed

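Per the submitters' processing notes, the tools were HISAT2 2.1.0, featureCounts 2.0.0 and DESeq2 with the mouse build mm10; the sources used here do not give the DESeq2 version, the treatment of strand, the size factors, the filters or the treatment of reads that map to several places. Such reads can move counts between copies of a repeat. Per the file headers, the deposited signal of an entry is its count divided by size factors and averaged over the libraries. Log2 fold changes and their errors are the authors', per the file headers. The deposited score is a Wald statistic, which was checked to be the ratio of these values. Each deposited p-value has the authors' Benjamini-Hochberg adjustment, and adjusting again over the 26204 copies with a p gave the same values. No values per sample were used, so the planned edgeR fit could not be made and calls are those of the authors' DESeq2 test.

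Group means were implied from the mean and the fold change under equal group sizes, which is an approximation of the authors' fit. A group level under 0.25 was taken as no reads and set to a floor of 1 normalized count per library. Intervals are the fold change with its normal 95% error. Python 3.11.15, pandas 2.3.3, numpy 2.4.6 and scipy 1.17.1 were used, and the Wald and centring steps were tested on simulated data. Gene coordinates are from GENCODE M21 (GRCm38, the assembly of mm10). Named were the 6 copies with the highest mean, the 6 with the smallest p, the extremes of the fold change, every Satellite subfamily, Dnmt3a, Dot1l and the genes of the chromatin list with the smallest p; the serial number ranges and the IMPB_01 copies were picked with their values known. The members and lists were chosen with earlier results of these data known.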

Additional observations from a re-analysis of the deposited data

How the results depend on the processing

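The count of 0 MurSatRep1 copies called stayed at 0 with a mean of at least 20. Centring on the table's median or within 20 bins of mean count also left it at 0. A threshold of 0.01, Bonferroni adjustment and an added log2 fold change of at least 1 can only remove calls, so their 0 was fixed. Recomputed Benjamini-Hochberg adjustment gave the deposited values again, so its 0 was fixed too. With a mean of at least 10 the count was 1, MurSatRep1_dup171, lower in Dot1L KO. That setting adjusts over fewer copies. The family's median log2 fold change of 0.55 was 0.53 when centred on the table's median, 0.65 when centred within bins, 0.55 and 0.54 at a mean of at least 10 and 20, and 0.55 as a mean weighted by the inverse squared error. As a log2 ratio of summed implied levels it was 0.38. In settings chosen after seeing the data it was 0.30 at a mean of at least 50 and 0.41 without the copies numbered 2000 to 2199. The Satellite subfamilies called were 0 with centring, and also 0 at a threshold of 0.01 and with Bonferroni adjustment, which can only remove calls. Of the satellite chromatin genes, 1 was called at 0.01 and with centring and 0 with Bonferroni adjustment, under which Dnmt3a was not called.

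No paired analysis was possible because the tables hold no values per sample. For the same reason leaving out each replicate in turn and another normalization were not run. Depth per library is unknown, and the low means limit the precision of single copies.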

Other observations

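Copies with consecutive serial numbers had positively correlated fold changes. Over the 91 pairs of tested MurSatRep1 copies whose numbers differ by 1, the log2 fold changes had a Pearson correlation of 0.31 and a Spearman correlation of 0.45. These coefficients run across copies of the same libraries, and carry no test. Pairs within the range 2000 to 2199, where 48 of 49 tested copies were positive, are included. Correlations without that range, or for pairs with distant numbers, were not computed.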
